A study of Mus musculus with 12 samples.

Results

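The 46 genes described here encode proteins that copy the genome in S phase or that separate the copies in mitosis. They were chosen by gene symbol with earlier results of these data known, 21 for DNA replication and 25 for mitosis. All 46 were found among the 47643 gene rows of the read count tables of sorted peritoneal macrophages (Mϕ). Peritonitis was induced in young adult female C57/BL6 mice by intraperitoneal zymosan A, a yeast cell wall preparation (5 mg/kg), and from day 1 the animals were injected every day with vehicle alone (VEH) or with compound III (CIII) at 25 mg/kg, which inhibits the microsomal prostaglandin E synthase-1 (mPGES-1). At day 6, F4/80lo Mϕ (CD45+, CD11b+, low for F4/80 and MerTK, high for MHCII) and F4/80hi Mϕ (CD45+, CD11b+, high for F4/80 and MerTK) were sorted from the lavage. In the gating that the methods of the study describe for flow cytometry, dendritic cells (CD11c+, MHCII+) were set apart first, and F4/80lo Mϕ were Ly6G- and MHCII+. Each of the 4 groups (VEH F4/80lo, CIII F4/80lo, VEH F4/80hi and CIII F4/80hi) held 3 libraries, numbered 1 to 3 and given in that order below. All mice had received zymosan, and untreated mice were not analysed here. The sources used here do not say that a library was made from a single mouse, so p-values measure only the spread between these libraries.

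A cell that commits to division first loads the MCM helicase onto its origins, then opens the forks, supplies deoxynucleotides and seals the new strands. Cyclin A and cyclin B with the kinase CDK1 then drive it into mitosis, where Aurora and Polo-like kinases, the spindle, the condensins and the anaphase-promoting complex part the chromosomes. Many of these genes are transcribed mainly in cycling cells, through E2F factors for S phase and the DREAM and MuvB complexes for mitosis. Macrophages that live in the peritoneal cavity can renew themselves by division, and their proliferation during the resolution of peritonitis is well known. In bulk libraries a lower level can reflect fewer cycling cells or less RNA of these genes per cell, which cannot be told apart.

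The promoters of the 3 S phase and the 3 mitotic genes with the highest mean level among the genes given below in every library and listed in RefSeq are shown because the 2 classes differ in the sequence elements of their promoters. Each window runs from 250 bases before to 50 bases after a start site that RefSeq lists for the gene (300 bases, mouse build GRCm38.p6, gene strand 5′ to 3′), the first where several are listed. RefSeq starts can differ from the GENCODE gene coordinates given further below, and the windows of Lig1 and Mcm7 do not hold the GENCODE start of these genes. Capitals mark E2F-like sites (TTTCCCGC, TTTCGCGC, TTTGCCGC or TTTGGCGC), the cell cycle homology region or CHR (TTTGAA or TTCGAA) and the CCAAT box (CCAAT), each searched on both strands. In Mcm7 an E2F-like site and a CCAAT box overlap. Mcm3 lies at chr1:20820263-20820562 (minus strand), Mcm7 at chr5:138171834-138172133 (minus strand, the first of 2 windows listed) and Lig1 at chr7:13276925-13277224 (plus strand, the first of 3 windows). Top2a lies at chr11:99024140-99024439 (minus strand), Birc5 at chr11:117848987-117849286 (plus strand) and Plk1 at chr7:122159185-122159484 (plus strand).
Mcm3: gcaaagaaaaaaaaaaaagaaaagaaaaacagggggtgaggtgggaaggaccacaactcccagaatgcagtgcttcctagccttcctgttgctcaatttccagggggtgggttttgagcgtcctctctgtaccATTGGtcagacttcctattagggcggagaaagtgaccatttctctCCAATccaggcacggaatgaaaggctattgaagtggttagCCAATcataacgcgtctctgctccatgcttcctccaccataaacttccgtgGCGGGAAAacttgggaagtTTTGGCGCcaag
Mcm7: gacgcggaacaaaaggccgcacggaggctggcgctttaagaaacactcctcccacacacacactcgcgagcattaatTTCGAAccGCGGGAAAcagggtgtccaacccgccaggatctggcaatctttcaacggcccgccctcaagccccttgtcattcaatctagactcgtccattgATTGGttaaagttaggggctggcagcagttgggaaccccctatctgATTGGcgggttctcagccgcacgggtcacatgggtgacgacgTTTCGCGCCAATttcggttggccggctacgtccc
Lig1: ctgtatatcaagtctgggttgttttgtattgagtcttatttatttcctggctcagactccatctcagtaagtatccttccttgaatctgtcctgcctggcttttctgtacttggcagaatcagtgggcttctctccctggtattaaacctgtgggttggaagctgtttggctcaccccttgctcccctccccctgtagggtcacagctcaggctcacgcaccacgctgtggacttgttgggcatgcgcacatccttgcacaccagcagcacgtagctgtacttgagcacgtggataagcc
Top2a: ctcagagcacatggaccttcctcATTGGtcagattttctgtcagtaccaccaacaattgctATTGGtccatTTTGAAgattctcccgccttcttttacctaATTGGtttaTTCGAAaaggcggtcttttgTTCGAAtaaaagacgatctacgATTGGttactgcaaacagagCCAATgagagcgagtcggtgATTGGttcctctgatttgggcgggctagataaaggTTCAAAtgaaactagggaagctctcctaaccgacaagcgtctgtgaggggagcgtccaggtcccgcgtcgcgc
Birc5: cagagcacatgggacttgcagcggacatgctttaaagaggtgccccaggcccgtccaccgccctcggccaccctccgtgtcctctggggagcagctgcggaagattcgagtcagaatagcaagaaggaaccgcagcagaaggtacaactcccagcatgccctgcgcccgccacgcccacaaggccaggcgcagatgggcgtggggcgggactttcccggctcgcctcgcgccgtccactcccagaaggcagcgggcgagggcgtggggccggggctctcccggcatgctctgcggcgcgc
Plk1: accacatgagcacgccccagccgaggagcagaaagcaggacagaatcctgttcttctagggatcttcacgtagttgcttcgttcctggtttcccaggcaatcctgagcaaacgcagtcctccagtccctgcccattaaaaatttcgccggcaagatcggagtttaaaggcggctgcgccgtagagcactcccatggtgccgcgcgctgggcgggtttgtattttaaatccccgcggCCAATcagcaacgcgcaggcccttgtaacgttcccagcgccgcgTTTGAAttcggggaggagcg
Top2a holds CHR and CCAAT elements and no E2F-like site of these letters, Mcm3 holds E2F-like sites and CCAAT boxes and no CHR, and none of these letters were found in the windows of Lig1 and Birc5. Windows were listed for 39 of the 46 genes (not for Aurkb, Ccna2, Gins2, Mcm4, Smc4, Stmn1 and Tpx2). An E2F-like site was present in 7 of 19 S phase and 2 of 20 mitotic promoters, against 2.32% of the 27025 promoters in the table. A CHR was present in 4 of 19 S phase and 15 of 20 mitotic promoters, against 19.4% of all promoters. A CCAAT box was present in 12 of 19 and 18 of 20, against 37.9%. CHR and CCAAT stood together in 3 of 19 S phase and 15 of 20 mitotic promoters, against 7.7%. A match of letters is a description of the window and was not measured as binding.

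Values are UMI-collapsed 3′ reads per gene, which the authors divided by a size factor for each library, separately in the F4/80lo and the F4/80hi table. Whole reads were recovered from these values, and levels are given in rpm, the reads of a gene per 1000000 reads of the library, so that both subpopulations are on the same scale. Depth ran from 426624 reads in CIII F4/80lo number 2 to 3389448 in VEH F4/80lo number 3, so 1 read was worth 2.34 rpm in the first and 0.295 rpm in the second. Counting error of a count of 0 (up to 3 reads) allows up to 7.03 rpm in the first and 0.885 rpm in the second. The libraries numbered 3 stood apart in all 4 groups. In them Gm42418 alone held 2.65% to 14.3% of the reads, against at most 0.579% in the libraries numbered 1 and 2. In both subpopulations the libraries numbered 3 also held the lowest summed level of markers of resident peritoneal Mϕ in their group. Gata6, the transcription factor that defines these cells, was at 34.5, 52.0 and 1.9 rpm in VEH F4/80hi and 23.2, 39.3 and 5.73 in CIII F4/80hi. Adgre1, which encodes F4/80 itself, was at 1064, 1336 and 366 rpm in VEH F4/80hi and 1145, 1204 and 368 in CIII F4/80hi, and between 205 and 381 in F4/80lo Mϕ. Ccr2, a receptor of monocytes, was at 1199 and 704 rpm in the F4/80hi libraries numbered 3 and between 20.2 and 306 in the other F4/80hi libraries. Of the listed genes of monocyte-derived Mϕ, Ly6c2, Cx3cr1, H2-Ab1 and Cd74 were likewise highest in number 3 of both F4/80hi groups. Retnla, Mrc1, Irf4 and Folr2 went the other way and were lowest there (Retnla at 413, 536 and 6.66 rpm with VEH and 222, 89.4 and 16.6 with CIII). The summed level of 12 resident markers was 212 and 415 rpm in the libraries numbered 3 and 2552 to 4421 in the others of F4/80hi. In F4/80lo it was 818, 842 and 143 rpm with VEH and 407, 1233 and 323 with CIII. Within number 3 the sum stayed higher in F4/80hi than in F4/80lo of the same treatment. So did Gata6 (VEH 1.9 against 0.295 rpm, CIII 5.73 against 1.16) and Adgre1 (VEH 366 against 248, CIII 368 against 205). Single markers did not all follow, and Alox15 was at 12 against 27.8 rpm in CIII number 3. Erythroid markers (6 genes) summed to 484 rpm in VEH F4/80lo number 3 and 1460 in VEH F4/80hi number 3, and to at most 93.9 in the other libraries. The counts and medians over the genes in each comparison are therefore given also for the libraries numbered 1 and 2 alone, and the part of these markers in the results was not tested.

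Markers of other cell types were read in the same libraries. Over 9 general Mϕ markers the summed level ran from 9223 to 17290 rpm among F4/80lo and from 14798 to 29026 among F4/80hi libraries, and 12 genes of monocyte-derived Mϕ summed to 3867 to 17688 and 1501 to 7894 rpm. Neutrophil markers (11, with Ngp and Camp at 0 throughout) summed to 36.9 to 76.7 rpm among F4/80lo and 41.9 to 128 among F4/80hi libraries. B cell markers (10) reached 214 rpm, T and NK cell markers (11) 72.3, dendritic cell markers (10) 203, eosinophil and mast cell markers (10, with Prg2, Epx, Mcpt4, Fcer1a and Gata2 at 0) 16.9 and mesothelial markers (8, with Msln, Upk3b, Krt19, Krt8, Lrrn4 and Muc16 at 0) 1.9. Genes of neutrophil precursors, which divide themselves, summed to 8.47 to 35.2 rpm among F4/80lo and 6.66 to 90.2 among F4/80hi libraries. Of these 6 genes Ctsg was at 0, Mpo did not exceed 1.2 rpm and Elane 1.16, and the sum was mostly Prtn3 in all libraries but VEH F4/80lo numbers 2 and 3, where Cebpe was at 7.06 and 6.2 rpm and Prtn3 at 1.41 and 3.54.

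All 46 genes had at least 1 read in 4 of the 12 libraries, and between 36 and 45 of them in the others. Levels of 44 genes were high enough for the tests below (a mean of at least 3 normalized counts or rpm). Cks2, a subunit of CDK1 complexes, and Stmn1, a microtubule regulator, were not tested and did not exceed 1.2 and 4.79 rpm. Pcna, Tyms, Ccnb1 and Ccnb2 have pseudogenes named after them, and how reads shared with these were counted is not given in the sources used here. The summed level of the 21 S phase genes was 1040, 993 and 315 rpm in VEH F4/80lo (782 ± 406, SD, n = 3), 579, 523 and 446 in CIII F4/80lo (516 ± 66.8), 1602, 1757 and 298 in VEH F4/80hi (1219 ± 801) and 1092, 1530 and 464 in CIII F4/80hi (1029 ± 536). The summed level of the 25 mitotic genes was 1753, 1159 and 309 rpm in VEH F4/80lo (1074 ± 726, SD, n = 3), 635, 389 and 399 in CIII F4/80lo (474 ± 139), 2695, 1726 and 227 in VEH F4/80hi (1549 ± 1244) and 1324, 1763 and 494 in CIII F4/80hi (1193 ± 645). Number 3 was the lowest library of each group for both classes, except for the mitotic genes of CIII F4/80lo, where number 2 was lowest. Among numbers 1 and 2, F4/80hi stood above F4/80lo of the same treatment and number for both classes, and CIII F4/80lo was the lowest group.

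**Figure D1:**
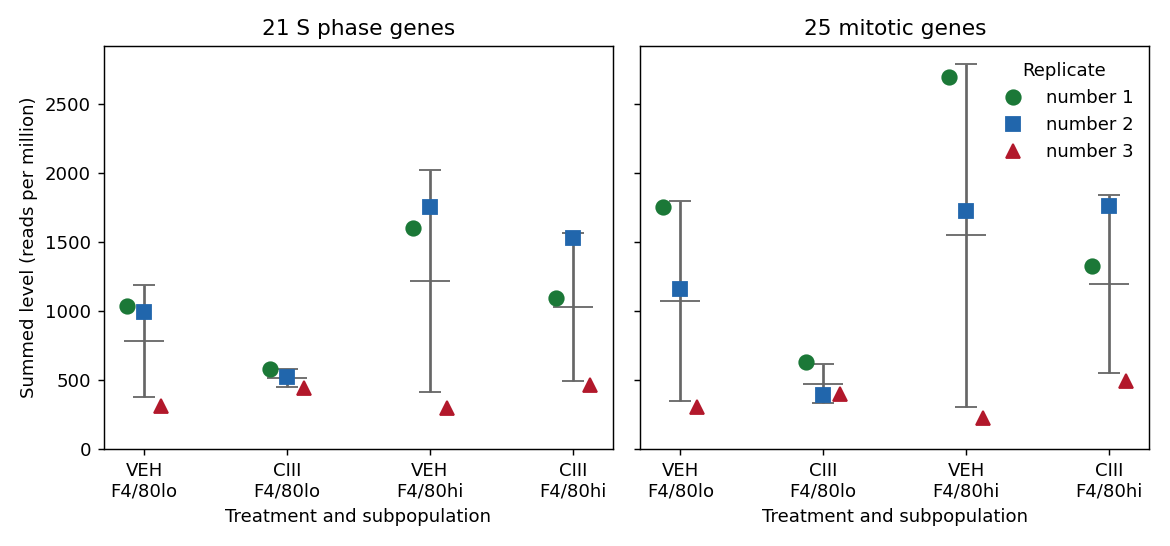
Summed levels (rpm, linear axis from 0) of the 21 S phase and the 25 mitotic genes in each library, by treatment and subpopulation. Symbols are libraries by replicate number, and the grey bar gives the mean ± SD of 3 libraries. Libraries numbered 3 lie between 227 and 494 rpm in all groups, while numbers 1 and 2 reach 2695 rpm in VEH F4/80hi and at most 635 rpm in CIII F4/80lo.

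The gap between number 3 and the other libraries was set against all genes. Number 3 was below both other libraries for 42 of 44 genes in VEH F4/80lo, against 46.5% of the 10736 genes tested between the subpopulations (not for Pola1 and Hmgb2). In CIII F4/80lo this held for 19 of 44 genes against 32.4%. In VEH F4/80hi it held for 43 of 44 against 44.5% (not for Uhrf1), and in CIII F4/80hi for 43 of 44 against 40.1% (not for Pola1). The median log2 difference of the 44 genes between number 3 and the mean of numbers 1 and 2 was -2.28 in VEH F4/80lo, -0.27 in CIII F4/80lo, -3.52 in VEH F4/80hi and -1.93 in CIII F4/80hi, while over all genes it was -0.22, 0.08, -0.19 and -0.05. The ratio of mitotic to S phase reads was 1.69, 1.17 and 0.981 in VEH F4/80lo, 1.1, 0.744 and 0.894 in CIII F4/80lo, 1.68, 0.983 and 0.76 in VEH F4/80hi and 1.21, 1.15 and 1.06 in CIII F4/80hi. Its means were 1.28 ± 0.365, 0.911 ± 0.176, 1.14 ± 0.481 and 1.14 ± 0.0743 (SD, n = 3 each), and all groups overlapped.

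**Figure D2:**
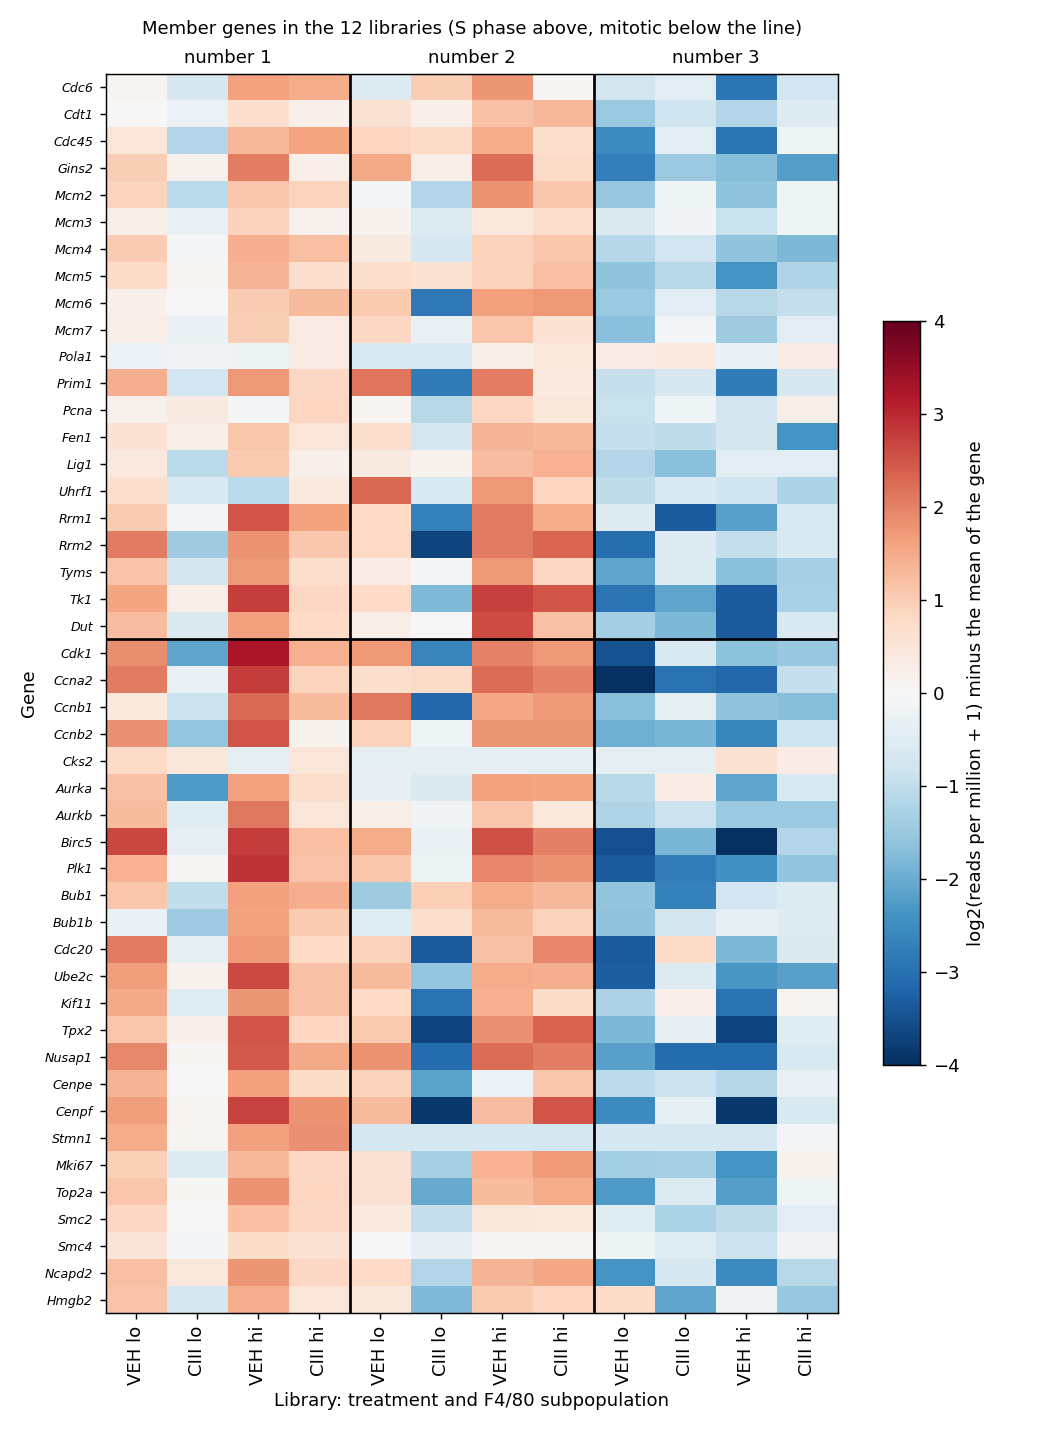
Level of each of the 46 genes (rows) in the 12 libraries (columns, ordered by replicate number), as log2(rpm + 1) minus the mean of the gene over the 12 libraries. The colours end at 4 and -4. The 4 libraries numbered 3 are mostly blue (below the mean), the F4/80hi libraries numbered 1 and 2 mostly red, and CIII F4/80lo number 2, the library with the fewest reads, is blue for many mitotic genes.

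Origin licensing and the replicative helicase were covered by 10 genes: Cdc6 and Cdt1, which load the helicase, Mcm2 to Mcm7, its ring, and Cdc45 and Gins2, which activate it. Mcm3, a ring subunit, was at 105, 97.4 and 59 rpm in VEH and 73.8, 60.9 and 81.1 in CIII F4/80lo, and at 171, 120 and 47.6 in VEH and 99.8, 146 and 79.7 in CIII F4/80hi. Mcm7, another ring subunit, was at 69.3, 103 and 17.4 rpm in VEH and 47.7, 46.9 and 54.5 in CIII F4/80lo, and at 115, 126 and 20.9 in VEH and 71.9, 86.7 and 41.9 in CIII F4/80hi. Gins2, a subunit of the GINS complex of the active helicase, was at 23.9, 35.3 and 0.885 rpm in VEH and 13.1, 14.1 and 3.48 in CIII F4/80lo, and at 51.1, 57.8 and 2.86 in VEH and 13.6, 20.3 and 1.72 in CIII F4/80hi. In each of the 4 libraries numbered 3, Gins2 was at the level of 3 reads, the limit that a count of 0 allows, while Mcm3 was at 47.6 rpm or more throughout. At the fork, Pcna, the sliding clamp of the polymerases, was at 57.4, 53.7 and 27.1 rpm in VEH and 66.1, 23.4 and 45.2 in CIII F4/80lo, and at 49.7, 91.1 and 30.5 in VEH and 94.2, 70.4 and 60.2 in CIII F4/80hi. Lig1, the ligase that joins Okazaki fragments, was at 100, 97.4 and 33.6 rpm in VEH and 35.4, 84.4 and 23.2 in CIII F4/80lo, and at 160, 182 and 56.2 in VEH and 87.8, 202 and 56.8 in CIII F4/80hi. Prim1, the small primase subunit, was at 17.9, 29.7 and 2.66 rpm in VEH and 3.07, 0 and 3.48 in CIII F4/80lo, and at 22.1, 27.5 and 0 in VEH and 11.2, 8.12 and 3.44 in CIII F4/80hi. Prim1 was read in all libraries but CIII F4/80lo number 2 and VEH F4/80hi number 3. Fen1, the nuclease that trims Okazaki fragments, was at 51.4, 53.7 and 17.7 rpm in VEH and 41.5, 21.1 and 16.2 in CIII F4/80lo, and at 74.6, 89.6 and 20 in VEH and 47.9, 85.3 and 5.73 in CIII F4/80hi.

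Nucleotide supply was covered by Rrm1 and Rrm2 (ribonucleotide reductase), Tyms, Tk1 and Dut. Rrm1, the large subunit of ribonucleotide reductase, was at 43, 36.7 and 14.2 rpm in VEH and 20, 2.34 and 1.16 in CIII F4/80lo, and at 123, 91.1 and 3.81 in VEH and 65.5, 59.6 and 13.2 in CIII F4/80hi. Tk1, the cytosolic thymidine kinase, was at 57.4, 32.5 and 1.48 rpm in VEH and 22.3, 4.69 and 3.48 in CIII F4/80lo, and at 130, 127 and 0.952 in VEH and 33.5, 110 and 6.88 in CIII F4/80hi. Both were far lower in number 3 than in number 1 of every group, and the treatments overlapped for both genes in both subpopulations.

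Of the genes that drive mitotic entry, Cdk1, the kinase of mitosis, was at 75.3, 69.2 and 0.885 rpm in VEH and 3.84, 2.34 and 12.8 in CIII F4/80lo, and at 199, 82.4 and 5.71 in VEH and 55.1, 69.1 and 6.31 in CIII F4/80hi. Ccna2, cyclin A, the partner of CDK2 and CDK1, was at 71.7, 26.8 and 0 rpm in VEH and 13.1, 28.1 and 1.16 in CIII F4/80lo, and at 117, 79.5 and 0.952 in VEH and 31.1, 66.3 and 8.03 in CIII F4/80hi. Number 3 was the lowest VEH library for both in each subpopulation. Among kinases and checkpoint genes, Birc5, survivin, of the chromosomal passenger complex with Aurora B, was at 306, 134 and 3.25 rpm in VEH and 36.9, 39.8 and 12.8 in CIII F4/80lo, and at 334, 285 and 0 in VEH and 111, 196 and 20.6 in CIII F4/80hi. Plk1, Polo-like kinase, was at 80.1, 63.6 and 2.07 rpm in VEH and 30.7, 25.8 and 3.48 in CIII F4/80lo, and at 225, 117 and 4.76 in VEH and 67.1, 106 and 9.17 in CIII F4/80hi. In CIII F4/80lo, numbers 1 and 2 of Cdk1, Birc5 and Plk1 lay below numbers 1 and 2 of VEH, and number 3 of CIII lay above number 3 of VEH. The exit from mitosis was represented by the anaphase-promoting complex. Ube2c, its ubiquitin-conjugating enzyme, was at 29.9, 22.6 and 0 rpm in VEH and 9.99, 2.34 and 5.8 in CIII F4/80lo, and at 59.4, 26 and 0.952 in VEH and 20.8, 25.7 and 1.15 in CIII F4/80hi. Cdc20, its activator, was at 41.8, 18.4 and 0 rpm in VEH and 6.92, 0 and 16.2 in CIII F4/80lo, and at 33.1, 21.7 and 1.9 in VEH and 16.8, 37.9 and 5.73 in CIII F4/80hi. For both genes the treatments overlapped in each subpopulation. At the kinetochore, Cenpe, a motor that carries chromosomes to the spindle equator, was at 63.3, 46.6 and 11.2 rpm in VEH and 23.8, 4.69 and 12.8 in CIII F4/80lo, and at 77.3, 20.2 and 10.5 in VEH and 40.7, 52.8 and 20.1 in CIII F4/80hi. Cenpf, a protein of the outer kinetochore, was at 45.4, 33.9 and 1.48 rpm in VEH and 14.6, 0 and 10.4 in CIII F4/80lo, and at 93.9, 33.3 and 0 in VEH and 50.3, 82.6 and 8.6 in CIII F4/80hi. Cdc20 and Cenpf had no read in CIII F4/80lo number 2, where a count of 0 allows up to 7.03 rpm.

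Chromosome structure was represented by Top2a, the condensin subunits Smc2, Smc4 and Ncapd2, Mki67 and Hmgb2. Top2a, topoisomerase II alpha, which untangles sister chromatids, was at 290, 208 and 27.1 rpm in VEH and 141, 32.8 and 92.7 in CIII F4/80lo, and at 476, 324 and 28.6 in VEH and 247, 378 and 120 in CIII F4/80hi. Smc4, a condensin ATPase, was at 241, 165 and 146 rpm in VEH and 159, 131 and 118 in CIII F4/80lo, and at 276, 176 and 93.3 in VEH and 257, 181 and 150 in CIII F4/80hi. Mki67, the antigen Ki-67, the usual marker of cycling cells, was at 38.2, 29.7 and 6.79 rpm in VEH and 13.1, 7.03 and 6.96 in CIII F4/80lo, and at 48.3, 52 and 2.86 in VEH and 35.1, 65 and 21.2 in CIII F4/80hi. In CIII F4/80lo all 3 libraries of Mki67 were at or under 13.1 rpm, and number 3 of VEH, at 6.79 rpm, lay just below them. In normalized counts that VEH library was at 7.66, above CIII numbers 2 and 3 (6.85 and 6.63). Hmgb2, a chromatin protein abundant in dividing cells, was at 41.8, 25.4 and 32.2 rpm in VEH and 10.8, 4.69 and 3.48 in CIII F4/80lo, and at 52.5, 39 and 17.1 in VEH and 26.3, 33.8 and 5.73 in CIII F4/80hi. In VEH F4/80lo its number 3 library lay between the other two.

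Whether inhibition of mPGES-1 changed these genes in F4/80lo Mϕ was the first comparison. With CIII 41 of the 44 genes were lower, against 54.1% of the 10718 genes tested, with a median log2 fold change of -0.77 against -0.05 over all genes. The 21 S phase genes had a median of -0.63 (19 lower) and the 23 mitotic genes -1.04 (22 lower). By role the medians ran from -0.25 for the 10 licensing and helicase genes through -0.69 for Ube2c and Cdc20, -0.70 for the 6 kinase and checkpoint genes, -0.72 for the 6 fork genes, -0.88 for the 6 chromosome structure genes, -1.05 for the 5 nucleotide genes and -1.49 for the 5 spindle and kinetochore genes to -1.63 for Cdk1 and its 3 cyclins. The differences did not pass the test. With limma on log2(normalized count + 1), a scale that understates the change of low genes, 0 of 44 genes (0% of all genes) had a Benjamini-Hochberg adjusted p under 0.05, and edgeR and DESeq2 on the recovered reads also called 0. Unadjusted, p was under 0.05 for 4 genes (Hmgb2, Rrm1, Prim1 and Smc2), all lower, against 1.61% of all genes that were lower at that p. With edgeR this held for 6 genes, against 1.71% of all genes, and with DESeq2 for 8 genes, against 1.59%.

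Hmgb2 (ENSMUSG00000054717, GRCm38 chromosome 8 from 57511907 to 57515999) had the smallest p, with a log2 fold change of -2.39 (SE 0.60, limma adjusted p = 1), and its 3 CIII libraries lay below the 3 VEH libraries. In normalized counts, the scale of this test, Hmgb2 and Smc4 were lower without overlap, 2 of 44 genes against 4.92% of all genes, so this share was near the background. In rpm the treatments of Smc4 overlapped. For Rrm1 (ENSMUSG00000030978, chromosome 7 from 102441695 to 102469771) the log2 fold change was -2.51 (SE 0.85, limma adjusted p = 1), and for Prim1 -2.32 (SE 1.01, limma adjusted p = 1). Mki67 (ENSMUSG00000031004, chromosome 7 from 135689784 to 135716361) had a log2 fold change of -1.19 (SE 0.69, limma adjusted p = 1) and Top2a (ENSMUSG00000020914, chromosome 11 from 98992943 to 99024189) of -0.71 (SE 0.75, limma adjusted p = 1). With 1 library left out, the value of Mki67 ran from -1.83 (without VEH number 3) to -0.76 (without VEH number 1) and that of Top2a from -1.67 to -0.09 (the same libraries), and in numbers 1 and 2 alone they were -1.69 and -1.82. An exact permutation test of 3 against 3 libraries cannot give a p below 0.1.

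The direction in F4/80lo Mϕ depended on the replicate number. Between libraries of number 1 the median log2 difference of CIII from VEH was -1.44 (42 of 44 genes lower), between those of number 2 it was -1.19 (39 lower), and between those of number 3 it was 0.46 (13 lower and 31 higher). Over all genes these medians were -0.02, -0.04 and -0.05. In the libraries numbered 1 and 2 alone, 41 of 44 genes were lower (52.6% of all genes), the median was -1.44, and 22 of 44 had an unadjusted p under 0.05 and were lower, against 2.9% of all genes, with 0 past an adjusted p of 0.05 in limma. Of these 22, 17 were mitotic and 5 S phase genes, with medians of -2.02 and -1.02 over the classes. With replicate blocks added to the fit of all libraries, 6 of 44 genes had an unadjusted p under 0.05 and were lower, against 3.85% of all genes, and 0 an adjusted p under 0.05. Leaving out VEH number 3 gave 23 genes at an unadjusted p under 0.05 (against 3.44% of all genes that were lower at that p in the same fit) and a median of -1.63. Leaving out VEH number 1 gave 1 gene (against 0.616%) and -0.18, and leaving out VEH number 2 gave 2 genes (against 0.952%) and -0.61. Of the neutrophil precursor genes only Prtn3 was higher with CIII, without overlap, at 10.8, 1.41 and 3.54 rpm with VEH and 31.5, 30.5 and 19.7 with CIII. Cebpe was at 1.2, 7.06 and 6.2 rpm with VEH and 0, 4.69 and 2.32 with CIII, and the other 4 genes did not exceed 1.2 rpm. The sum of the 6 genes ran from 8.47 to 13.1 with VEH and 24.3 to 35.2 with CIII. The treatments overlapped for the resident markers (818, 842 and 143 rpm with VEH, 407, 1233 and 323 with CIII) and for the genes of monocyte-derived Mϕ (10205, 13802 and 3867 with VEH, 17688, 9627 and 11834 with CIII). B cell markers were at 135, 35.3 and 22.4 rpm with VEH and 214, 77.4 and 27.8 with CIII, overlapping but higher with CIII within each number. The part of these genes in the result was not tested.

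In F4/80hi Mϕ the share of genes lower with CIII depended on the test. With limma, of 44 genes 23 were lower, against 46.5% of the 10499 genes tested, and the median log2 fold change was -0.03 against 0.05 over all genes (S phase -0.03, mitotic 0.10). By role the medians lay between -0.33 for Cdk1 and its cyclins and 0.54 for the 5 spindle and kinetochore genes, all of which were higher. In limma's test 0 of 44 genes (0% of all genes) had an adjusted p under 0.05 and 0 an unadjusted p under 0.05, against 2.65% of all genes lower at that p, and edgeR and DESeq2 gave 0 and 0 as well. With edgeR 37 of 44 genes were lower (median -0.37, against 50.1% of all genes), with DESeq2 37 (-0.38, against 50.4%) and with library quality weights in limma 36 (-0.33, against 47%). In normalized counts, treatments without overlap were lower with CIII in 0 of 44 genes (5.76% of all genes) and higher in 1, Pola1, a subunit of DNA polymerase alpha (4.73% of all genes). The smallest p was that of Hmgb2, with a log2 fold change of -0.97 (SE 0.66, limma adjusted p = 0.992). Gins2 followed with -1.35 (SE 1.09) and Fen1 with -0.88 (SE 0.88), both with an adjusted p of 0.992. With 1 library left out, these values ran from -1.4 to -0.27 for Hmgb2, -2.57 to -0.49 for Gins2 and -1.61 to 0.18 for Fen1, each closest to or past 0 without CIII number 3. Mki67 had a log2 fold change of 0.70 (SE 0.91, limma adjusted p = 0.992) and Top2a of 0.33 (SE 0.88, limma adjusted p = 0.999). With the replicate number as a block Gins2, Hmgb2 and Fen1 had an unadjusted p under 0.05 (3 of 44 genes, against 6.24% of all genes that were lower at that p), with adjusted p of 0.351, 0.43 and 0.437 in limma.

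Here too the replicate numbers disagreed. The median log2 difference of CIII from VEH was -0.96 in number 1 (39 of 44 lower), -0.13 in number 2 (27 lower) and 0.72 in number 3 (11 lower and 33 higher), while over all genes it was 0.00, 0.00 and 0.04. In the libraries numbered 1 and 2 alone 38 of 44 genes were lower, against 48.3% of all genes, with a median of -0.49, and 5 of 44 had an unadjusted p under 0.05 and were lower, against 3.51% of all genes, and 0 an adjusted p under 0.05. The values of Mki67 and Top2a were then -0.12 and -0.42. Leaving out VEH number 3 gave a median of -1.03 with 42 genes lower and 13 at an unadjusted p under 0.05, against 4.88% of all genes that were lower at that p. Leaving out CIII number 3 gave a median of 0.56 with 3 lower, leaving out VEH number 1 or VEH number 2 gave 0.47 each, and leaving out CIII number 1 or 2 gave -0.18 and -0.38. The sign of the median thus turned with the library left out. The 12 genes of monocyte-derived Mϕ summed to 1767, 1501 and 2935 rpm with VEH and 4515, 1802 and 7894 with CIII in F4/80hi, higher with CIII within each number. The 12 resident markers summed to 3537, 4421 and 212 rpm with VEH and 2871, 2552 and 415 with CIII, lower with CIII in numbers 1 and 2 and higher in number 3. The neutrophil precursor genes, here too mostly Prtn3, summed to 55.2, 11.6 and 6.66 rpm with VEH and 90.2, 28.4 and 29.8 with CIII. The part of these markers in the result was not tested.

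The CIII effects of both subpopulations were then tested against each other in the 10097 genes that entered both fits, with all 12 libraries. The response was lower in F4/80lo than in F4/80hi for 36 of 44 genes, against 55.9% of all genes, with a median difference of -0.81 on the log2 scale against -0.09 over all genes. None passed the test, since 0 of 44 genes (0% of all genes) had an adjusted p under 0.05 and 0 an unadjusted p under 0.05 in limma (1% of all genes were lower at that p), and edgeR and DESeq2 gave 0 and 0. For Mki67 the difference was -1.89 (SE 1.21, limma adjusted p = 0.999) and for Top2a -1.04 (SE 1.34, limma adjusted p = 0.999). With the replicate block 5 of 44 genes had an unadjusted p under 0.05, against 3.05% of all genes lower at that p, and 0 an adjusted p under 0.05. In numbers 1 and 2 alone 38 of 44 genes were lower (55% of all genes), with a median of -0.95, and 8 of 44 had an unadjusted p under 0.05, against 2.01% of all genes. Leaving out VEH F4/80hi number 3 turned the median to 0.24 with 19 genes lower. It was -0.26 without VEH F4/80lo number 1, -0.54 without CIII F4/80hi number 2, -1.59 without VEH F4/80lo number 3, -1.35 and -1.31 without VEH F4/80hi number 1 or 2, and -1.37 without CIII F4/80hi number 3.

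**Figure D3:**
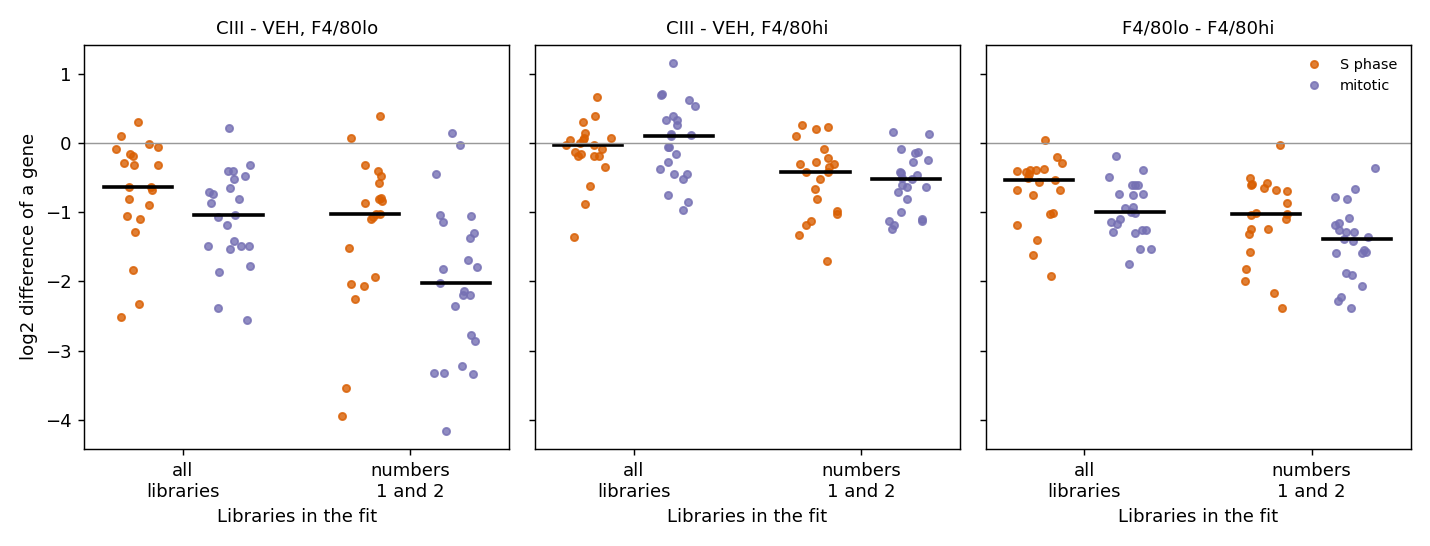
Log2 differences of the 44 tested genes (points) in the 3 comparisons, from the fit of all libraries and from replicate numbers 1 and 2 alone, for S phase and mitotic genes, with the median of each class as a black line. The line at 0 marks no difference. In F4/80lo the medians of CIII against VEH are -0.63 and -1.04 with all libraries and -1.02 and -2.02 in numbers 1 and 2, and in F4/80hi they are -0.03 and 0.10, and -0.41 and -0.52.

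Levels were then compared between F4/80lo and F4/80hi Mϕ over both treatments. Of the 44 genes 43 were lower in F4/80lo, against 44.3% of the 10736 genes tested, with a median log2 difference of -0.74 against 0.07 over all genes (S phase -0.53, mitotic -1.0). Uhrf1, which maintains DNA methylation at forks, was the exception at 0.05. All 8 roles had negative medians, from -0.43 for the licensing and helicase genes to -1.40 for the nucleotide genes. Without the block 0 of 44 genes had an adjusted p under 0.05 in limma (0.0373% of all genes did), and 3 (Bub1b, Lig1 and Rrm2) had an unadjusted p under 0.05, against 2.8% of all genes that were lower at that p. With edgeR and DESeq2 0 genes were called, and 6 and 9 had an unadjusted p under 0.05, against 4.48% and 5.43% of all genes that were lower at that p. When F4/80lo and F4/80hi libraries of the same treatment and number were paired, 4 of 44 genes had an adjusted p under 0.05, all lower, against 1.97% of all genes, and 18 had an unadjusted p under 0.05, against 7.54%.

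The 4 genes were Lig1 (ENSMUSG00000056394, chromosome 7 from 13277283 to 13311433), with a log2 difference of -1.01 (SE with the block 0.18, limma adjusted p = 0.0042), Plk1 (ENSMUSG00000030867, chromosome 7 from 122159439 to 122169873), with -1.26 (SE 0.27, limma adjusted p = 0.0131), Rrm1, with -1.61 (SE 0.43, limma adjusted p = 0.0374), and Ccna2, with -1.28 (SE 0.35, limma adjusted p = 0.0406). Without the block their adjusted p in limma was 0.492, 0.75, 0.554 and 0.78. The differences of Plk1 and Ccna2 moved by more than 1.5 times with 1 library left out, to -0.5 and -0.36 without VEH F4/80lo number 3, -0.81 and -0.74 without CIII F4/80lo number 3, -0.74 each without VEH F4/80hi number 1, and -2.06 and -2.22 without VEH F4/80hi number 3. Lig1, Plk1 and Ccna2 were lower in F4/80lo in all 6 pairs, as were 7 of the 44 genes, against 3.95% of all genes. Some of these values were near the floor. In the pair of VEH number 3, Ccna2 was at 0 against 0.952 rpm, the level of 1 read, and Plk1 at 2.07 against 4.76 rpm. In CIII F4/80lo number 3, Plk1 was at 3.48 rpm, the level of 3 reads. Rrm1 was higher in F4/80lo in the pair of VEH number 3, at 14.2 against 3.81 rpm. Mki67 differed by -1.0 (SE 0.36 with the block, limma adjusted p = 0.123) and Top2a by -1.01 (SE 0.29 with the block, limma adjusted p = 0.0518).

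The pairs numbered 3 again differed from the rest. In VEH the median log2 difference of F4/80lo from F4/80hi was -0.59, -0.67 and 0.21 in pairs 1, 2 and 3, with 40, 39 and 19 of 44 genes lower, and in CIII it was -1.24, -1.98 and 0.02, with 44, 42 and 20 lower. In numbers 1 and 2 alone all 44 of the 44 genes tested were lower (47.3% of all genes), with a median of -1.25, and 4 of 44 had an adjusted p under 0.05, against 1.09% of all genes, or 15 of 44 with the block, against 3.33%. The F4/80hi libraries numbered 3, whose resident markers were low, also lacked the higher level of these genes. Summed markers of dendritic cells, B cells, and T and NK cells were higher in F4/80lo in every pair but that of VEH number 3. There they were at 28.3 against 28.6, 22.4 against 40.9, and 25.7 against 72.3 rpm in F4/80hi. The part of the markers in the result was not tested. Leaving out VEH F4/80hi number 3 gave 27 genes at an unadjusted p under 0.05 (against 6.67% of all genes that were lower at that p in the same fit) and a median of -1.49. Leaving out CIII F4/80hi number 3 gave 8 genes (against 3.87%) and -1.09, and leaving out VEH F4/80lo number 1 gave 5 (against 3.16%) and -1.10. The count was 0 without VEH F4/80lo number 3 (median -0.36) and without VEH F4/80hi number 1 (-0.44), VEH F4/80hi number 2 (-0.57) or CIII F4/80hi number 2 (-0.57), 1 without CIII F4/80lo number 1 (-0.84) or CIII F4/80hi number 1 (-0.61), and 2 without CIII F4/80lo number 3 (-0.72), while over all genes the share lay between 1.67% and 3.34% in these fits.

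**Figure D4:**
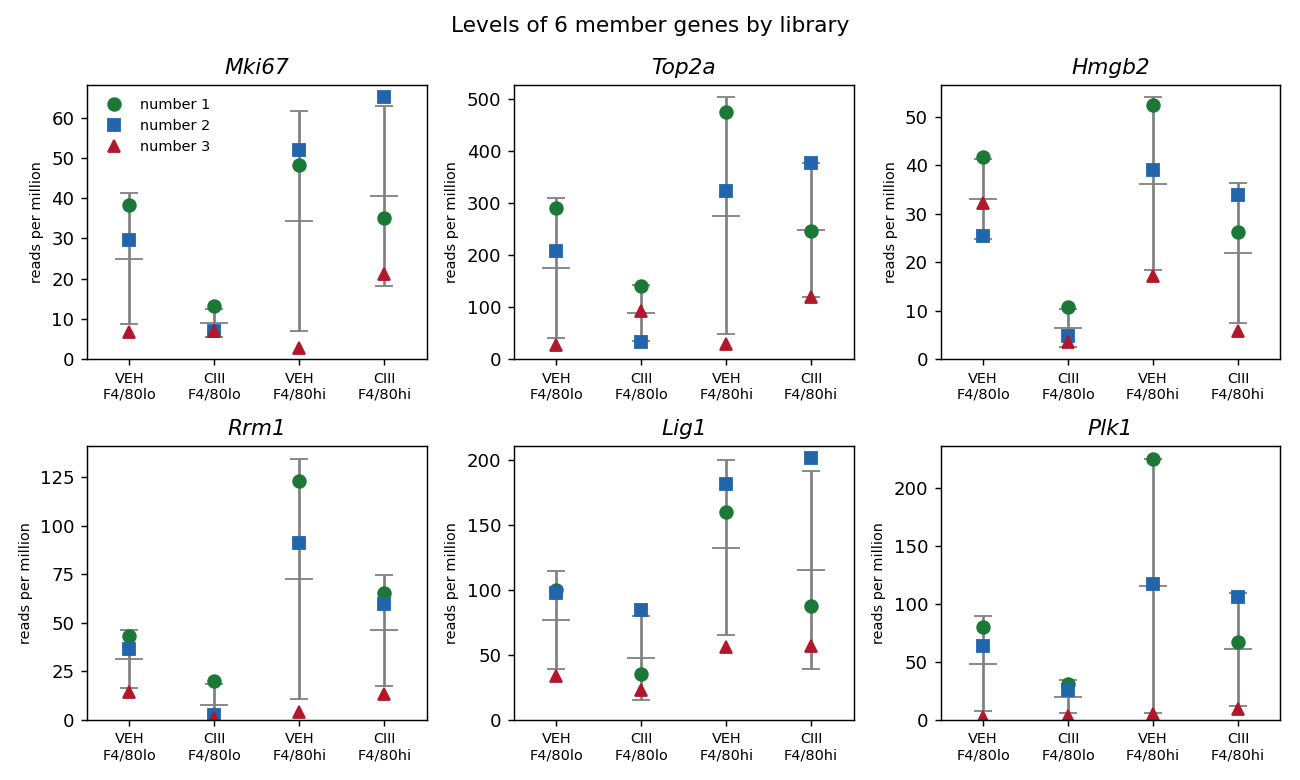
Levels (rpm, linear axes from 0) of Mki67, Top2a, Hmgb2, Rrm1, Lig1 and Plk1 in the 12 libraries by group, with symbols by replicate number and the mean ± SD of 3 libraries in grey. For Hmgb2 the 3 CIII libraries of F4/80lo (10.8, 4.69 and 3.48 rpm) lie below the 3 VEH libraries, and for Plk1 the libraries numbered 3 lie under 10 rpm in all groups.

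Other genes of the same pathways, from lists written by symbol with earlier results of these data known, were read in the same fits. Shares over all genes that were lower were 54.1% with CIII in F4/80lo, 46.5% in F4/80hi and 44.3% between the subpopulations. Of 55 further replication genes 39 of the 49 tested were lower with CIII in F4/80lo (median log2 fold change -0.42) and 39 of 53 in F4/80hi (-0.29), and 35 of 52 were lower in F4/80lo than in F4/80hi (-0.24). Of 69 further mitosis genes 57 of 64 were lower with CIII in F4/80lo (-0.91) and 36 of 66 in F4/80hi (-0.17), and 63 of 65 were lower in F4/80lo than in F4/80hi (-0.75). None of these passed an adjusted p of 0.05 in limma, in either direction. At an unadjusted p under 0.05, 3 replication and 3 mitosis genes were lower with CIII in F4/80lo, against 1.61% of all genes. In F4/80hi 2 replication genes and 1 mitosis gene were lower, against 2.65% of all genes, and 1 replication gene was higher, against 1.29%. Between the subpopulations 1 replication and 4 mitosis genes were lower in F4/80lo, against 2.8% of all genes, and 1 replication gene was higher, against 6.66%. With the block 1 of 52 replication and 6 of 65 mitosis genes were lower in F4/80lo at an adjusted p under 0.05 in limma, against 1.97% of all genes.

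Both lists were also read in numbers 1 and 2 alone, where 52.6%, 48.3% and 47.3% of all genes were lower in these comparisons. With CIII 60 of 64 mitosis genes were lower in F4/80lo (median -1.52), 19 of them at an unadjusted p under 0.05, against 2.9% of all genes, and 55 of 66 were lower in F4/80hi (-0.71), 10 of them at that p, against 3.51%. Of the replication genes 39 of 49 were lower in F4/80lo (-0.61), 5 of them at that p, and 39 of 53 in F4/80hi (-0.48), 6 of them at that p. Between the subpopulations 63 of 65 mitosis genes (-0.94) and 36 of 52 replication genes (-0.41) were lower in F4/80lo, 3 and 0 of them at an adjusted p under 0.05 in limma, against 1.09% of all genes.

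Among the genes of these lists with the smallest p, Dnmt1, the maintenance DNA methyltransferase, was at 114, 136 and 52.5 rpm with VEH and 66.1, 28.1 and 35.9 with CIII in F4/80lo, with a log2 fold change of -1.25 (SE 0.45, limma adjusted p = 1). Ung, the uracil glycosylase that repairs new DNA, was at 15.5, 18.4 and 1.77 rpm with VEH and 3.07, 0 and 0 with CIII (log2 fold change -2.60, SE 1.10, limma adjusted p = 1). In F4/80hi, Rfc3, a subunit of the clamp loader, was at 60.7, 59.3 and 33.3 rpm with VEH and 18.4, 33.8 and 20.6 with CIII (log2 fold change -1.15, SE 0.41, limma adjusted p = 0.992). Slbp, which binds replication-dependent histone mRNA, went the other way in F4/80hi, at 12.4, 11.6 and 5.71 rpm with VEH and 38.3, 32.5 and 17.2 with CIII (log2 fold change 1.37, SE 0.51, limma adjusted p = 0.992), without overlap. Its response differed between the subpopulations by -1.80 (SE 0.68, limma adjusted p = 0.999). The mitotic kinesin Kif4 (-3.30, SE 1.45) and the microtubule polymerase Ckap5 (-3.22, SE 1.5) followed in that test, both with an adjusted p of 0.999. Between the subpopulations Incenp and Zwint, of the inner centromere and the kinetochore, were lower in F4/80lo by log2 differences of -0.75 (SE 0.25, limma adjusted p = 0.331, with the block 0.033) and -0.88 (SE 0.31, limma adjusted p = 0.369, with the block 0.0355).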

How the data were processed

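RNA of sorted F4/80lo and F4/80hi Mϕ was measured by 3′ mRNA sequencing with unique molecular identifiers in 12 libraries, 3 for each of 4 groups, which were taken from the sample titles. The authors ran the Bluebee QuantSeq FWD-UMI pipeline (Bbduk, STAR on GRCm38, collapse of UMI duplicates, HTSeq-count), with versions not given in the sources used here. The deposited signal values are normalized counts, made by the authors by dividing whole reads by a DESeq2 size factor per library, separately for each subpopulation. Divided by the value of 1 read, 100% of the values were whole within 0.01, and the recovered reads gave rpm and the input of edgeR 4.0.16 and DESeq2 1.42.0. Count tests were alternatives, because the deposited values are not whole counts. Symbols were found for 47224 of 47643 rows.

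CIII was compared with VEH by limma 3.58.1 (R 4.3.3, mean-variance trend, two-sided) on log2(normalized count + 1) in genes with a mean of at least 3, and F4/80lo with F4/80hi on log2(rpm + 1). P-values were adjusted by Benjamini-Hochberg over all genes tested (threshold 0.05). Depth was 426624 to 3389448 reads, and limits of a count of 0 cover counting error only. Libraries of the same number deviated together: the correlation of deviations from group means over genes was 0.121, 0.238 and 0.504 between treatments for F4/80lo and 0.216, 0.412 and 0.639 for F4/80hi Mϕ, and between subpopulations 0.384, 0.378 and 0.685 with VEH and 0.259, 0.303 and 0.478 with CIII, so the numbers were also used as a block. Libraries numbered 1 and 2 also correlated with each other across these groups (0.0155 to 0.285), and in 2 cases more than with their own number, while number 3 went against both (-0.525 to -0.163). This pairing comes from the numbers in the titles and these deviations, and the labels do not name shared mice. Deviations from a group mean cancel within the group, so a number 3 that stands apart in each group can give correlations of these signs. VEH and CIII were given to different mice, so the correlations between treatments do not establish pairs.

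Genes given in every library were Mki67, Top2a, the 2 members of each role with the highest mean rpm and the 3 with the smallest p in each comparison of treatments. The other genes of the pathways named were those with the 3 smallest p per comparison. Members, gene lists and marker lists (11 cell types) were chosen with earlier results of these data known. The fits were tried on simulated reads that held no difference between replicate numbers. They therefore do not show how the fits or the block behave when the libraries numbered 3 stand apart. Alternatives were other pseudocounts, filters, scalings, library weights, tools, the block and leaving out each library, and the fits of numbers 1 and 2 alone and of edgeR with the block were chosen after seeing the data. Figures were drawn with matplotlib 3.10.9.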

Additional observations from a re-analysis of the deposited data

How the results depend on the processing

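Of the values recomputed under the alternatives, 636 kept their side of the threshold and their direction or, for counts, medians and mean levels, changed by no more than 1.5 times (counts) or by less than the spread between replicate numbers or libraries, and 45 moved, 17 became stronger and 12, all of single genes, reversed; the cause was not tested. Of 89 recomputed medians 6 turned their sign within that spread: in F4/80hi from -0.03 to 0.03 with a pseudocount of 0.5, 0.07 in rpm, 0.47 without VEH number 1 or 2 and 0.56 without CIII number 3, and for the difference between responses from -0.81 to 0.24 without VEH F4/80hi number 3. In F4/80lo the count of genes lower with CIII at an unadjusted p under 0.05 (4) was 19 with library quality weights, 8 with DESeq2, 7 with edgeR and the replicate block, 22 in numbers 1 and 2 alone, 23 there with the block (over all genes 1.61%, and then 6.03%, 1.59%, 3.48%, 2.9% and 3.61%), and 1 to 23 with 1 library left out. In F4/80hi the count (0) was 3 with the block, 3 with edgeR and the block, 5 in numbers 1 and 2 alone, 6 there with the block (over all genes 2.65%, and then 6.24%, 5.93%, 3.51% and 4.52%), and 0 to 13 with 1 library left out, and the median ran from -1.03 to 0.56. For the difference between responses (0) it was 5 with the block, 5 with edgeR and the block, 8 in numbers 1 and 2 without or with the block (over all genes 1%, and then 3.05%, 2.53%, 2.01% and 2.64%), and 0 to 3 with 1 library left out, and the median ran from -1.59 to 0.24. Between the subpopulations the count at an unadjusted p under 0.05 (3) was 5 with TMM scaling, 6 with edgeR, 9 with DESeq2, 18 with the block, 26 with edgeR and the block, 0 in VEH and 11 in CIII libraries alone, 32 in numbers 1 and 2, 36 there with the block (over all genes 2.8%, and then 4.31%, 4.48%, 5.43%, 7.54%, 8.75%, 0.82%, 2.81%, 7.7% and 10.1%), and 0 to 27 with 1 library left out. The adjusted count (0) was 4 with the block, 10 with edgeR and the block, 4 in numbers 1 and 2 and 15 there with the block (over all genes lower 1.97%, 2.89%, 1.09% and 3.33%). The block changed no other adjusted count of the members. The median of F4/80lo ran from -1.63 to -0.18 and that between subpopulations from -1.49 to -0.36 with 1 library left out.

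In F4/80hi the log2 fold change of Top2a reversed to -0.22 with quality weights and with DESeq2, -0.21 with edgeR, -0.42 in numbers 1 and 2 with or without the block, -0.84 without VEH number 3 and -0.03 without CIII number 2. That of Mki67 reversed to -0.12 in numbers 1 and 2 with or without the block and to -0.47 without VEH number 3, and that of Fen1 to 0.18 without CIII number 3. The difference between responses of Top2a reversed to 0.12 without VEH F4/80hi number 3. With 1 library left out, these values ran from -0.84 to 1.07 for Top2a, -0.47 to 1.29 for Mki67 and -1.61 to 0.18 for Fen1 in F4/80hi, and from -2.0 to 0.12 for the difference of Top2a. The mean summed level of the S phase genes in CIII F4/80lo moved to 604 rpm when genes above 1% of the reads of a library were left out of the total. Genes near 3 reads in the library with 426624 reads cannot be compared at this depth.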

Other observations

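Genes that control the passage from G1 to S (37 listed, cyclins D and E, their kinases and inhibitors, E2F and Rb families) were read in the same fits. With CIII 18 of 31 tested genes were lower in F4/80lo (median log2 fold change -0.06) and 16 of 33 in F4/80hi (0.00), and 18 of 33 were lower in F4/80lo than in F4/80hi (-0.07), against 54.1%, 46.5% and 44.3% of all genes. In numbers 1 and 2 alone these counts were 22 of 31 (-0.25), 19 of 33 (-0.07) and 22 of 33 (-0.28), against 52.6%, 48.3% and 47.3%. Whether this list differed from the members was not tested. In limma's test 0 of them had an adjusted p under 0.05 in these 3 comparisons. With the replicate block 2 of 33 had one between the subpopulations, 1 lower, against 1.97% of all genes that were lower at that adjusted p, and 1 higher. E2f8, a repressor of the E2F family, was at 19.1, 41 and 8.85 rpm with VEH and 10.8, 0 and 0 with CIII in F4/80lo (log2 fold change -3.19, SE 1.04, limma adjusted p = 1). E2f5 was at 6.9, 7.23 and 2.86 rpm with VEH and 13.6, 23 and 15.5 with CIII in F4/80hi, without overlap (1.41, SE 0.57, limma adjusted p = 0.992).

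Ccnd2, the D-type cyclin that couples growth signals to the cycle, had the smallest p between the subpopulations among the further replication, mitosis and G1 to S genes tested. It was at 160, 393 and 276 rpm with VEH and 504, 101 and 332 with CIII in F4/80lo, and at 24.9, 43.4 and 194 with VEH and 147, 9.48 and 150 with CIII in F4/80hi. It was higher in F4/80lo in all 6 pairs of the same treatment and number, by 2.08 on the log2 scale (SE 0.67, limma adjusted p = 0.319, with the block 0.000749), and by 2.71 in numbers 1 and 2 alone (limma adjusted p = 0.0753). Ccnd1, another D-type cyclin, went the other way in all 6 pairs. It was at 104, 287 and 23.9 rpm with VEH and 81.5, 32.8 and 86.9 with CIII in F4/80lo, and at 235, 625 and 30.5 with VEH and 152, 196 and 122 with CIII in F4/80hi.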
